A study of Mus musculus with 11 samples.

Results

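The Serpin family holds the genes whose mouse symbols begin with Serpin, and 9 of its members are described here in sorted prefrontal neurons of mice. The members are Serpinb6a, Serpinb6b, Serpinb1a, Serpine2, Serpinf1, Serping1, Serpinh1, Serpini1 and Serpina3n, 9 of the 68 Serpin genes among the 53465 genes of the count files. Serpinb6b was picked because its counts were higher in ethanol-exposed mice, so its values are given as a description with no test. The other 8 were taken with it as named members of the family, chosen with earlier results of these data known.

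RNA was sequenced from GFP-positive cells sorted by fluorescence from the medial prefrontal cortex (mPFC) of 11 adult male CRF1:GFP mice, a reporter line in which cells that express the corticotropin-releasing factor receptor CRF1 carry GFP. Each library came from 1 mouse and started from 160 pg of RNA. The 6 naïve mice received the alcohol dehydrogenase inhibitor pyrazole and breathed air. The 5 withdrawn mice breathed intermittent ethanol vapor for 5 to 6 weeks, with injections of ethanol (1.75 g/kg) and pyrazole (68.1 mg/kg), and were taken 5 to 8 days into abstinence. Both groups thus carried the same reporter and received pyrazole. Groups follow each sample's title and treatment label. A further label reads control for withdrawn mice 3, 4 and 5, and the text that describes the deposit counts 5 control and 6 ethanol mice.

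Serpins share a fold in which an exposed loop near the end of the protein acts as bait for a protease. When the protease cuts the loop, the serpin snaps into a new shape and traps the enzyme in an inactive complex. The sequence of the loop decides which proteases are caught, and some members have lost inhibition and serve as chaperones or signals instead. In the brain, serpins restrain the plasminogen activators and thrombin that act at synapses and vessels, and the complement proteases that start inflammation.

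A mouse had between 7351567 and 22244869 counts on genes. Expression is given as CPM, counts scaled to library sizes normalized by TMM in edgeR, and the floor of 3 counts in a library stood at 0.135 to 0.408 CPM. PCR amplification makes reads dependent on each other, so this floor and the intervals given below describe counting error alone. All 10 glutamatergic neuron markers had counts in every mouse, with a summed level of 2155 to 3560 CPM in naïve and 1555 to 3140 CPM in withdrawn mice. Markers of other cell types were present too. Endothelial markers summed to 9.955 to 989 CPM in naïve and 151 to 1190 CPM in withdrawn mice. For GABAergic neuron markers the sums were 82.3 to 1126 CPM and 33.35 to 773 CPM. A pair of libraries stood apart for the members. Naïve mouse 5 had the fewest genes with a count (15585), and withdrawn mouse 2 had low values of 3 members that were high in every other withdrawn mouse. Results that rest on either mouse are given with and without it.

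The comparison asked which Serpin transcripts differed in these neurons after withdrawal from ethanol. It used edgeR's quasi-likelihood test on all 17093 genes that passed a filter on low counts, with p-values adjusted over all of them. Genes were called where the adjusted p did not exceed 0.05 and the log2 fold change lay beyond 0.6 in either direction. All 9 members passed the filter. Of the 8 members open to a test, 0 were called, where 0.00585% of all tested genes were called. At an unadjusted p under 0.05, 4 of the 8 were higher in withdrawn mice (Serpinf1, Serping1, Serpinh1 and Serpinb1a), against 5.00% of all genes, and 1 was lower (Serpina3n), against 2.22%. The remaining 3 were Serpini1, Serpine2 and Serpinb6a. In such bulk samples of sorted cells, more RNA per cell and more cells of a type cannot be told apart. The median log2 fold change of the 8 was 1.55, and that of all tested genes was 0.02. The 8 were chosen with earlier results of these data known, so setting them beside all genes is a description. DESeq2's Wald test called 3 of the 8 (Serpinf1, Serpinh1 and Serpinb1a), all higher, where it called 1.57% of genes as higher. Without withdrawn mouse 2, edgeR called 3 (Serpinf1, Serping1 and Serpinh1), where 1.06% of genes were called higher, and DESeq2 called the same 3, where 2.40% were. That mouse was singled out because it was low for these 3 members, so these calls follow in part from the choice. The DESeq2 fit without it was chosen after seeing the data. With any other mouse left out, edgeR called 0 of the 8.

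**Figure D1:**
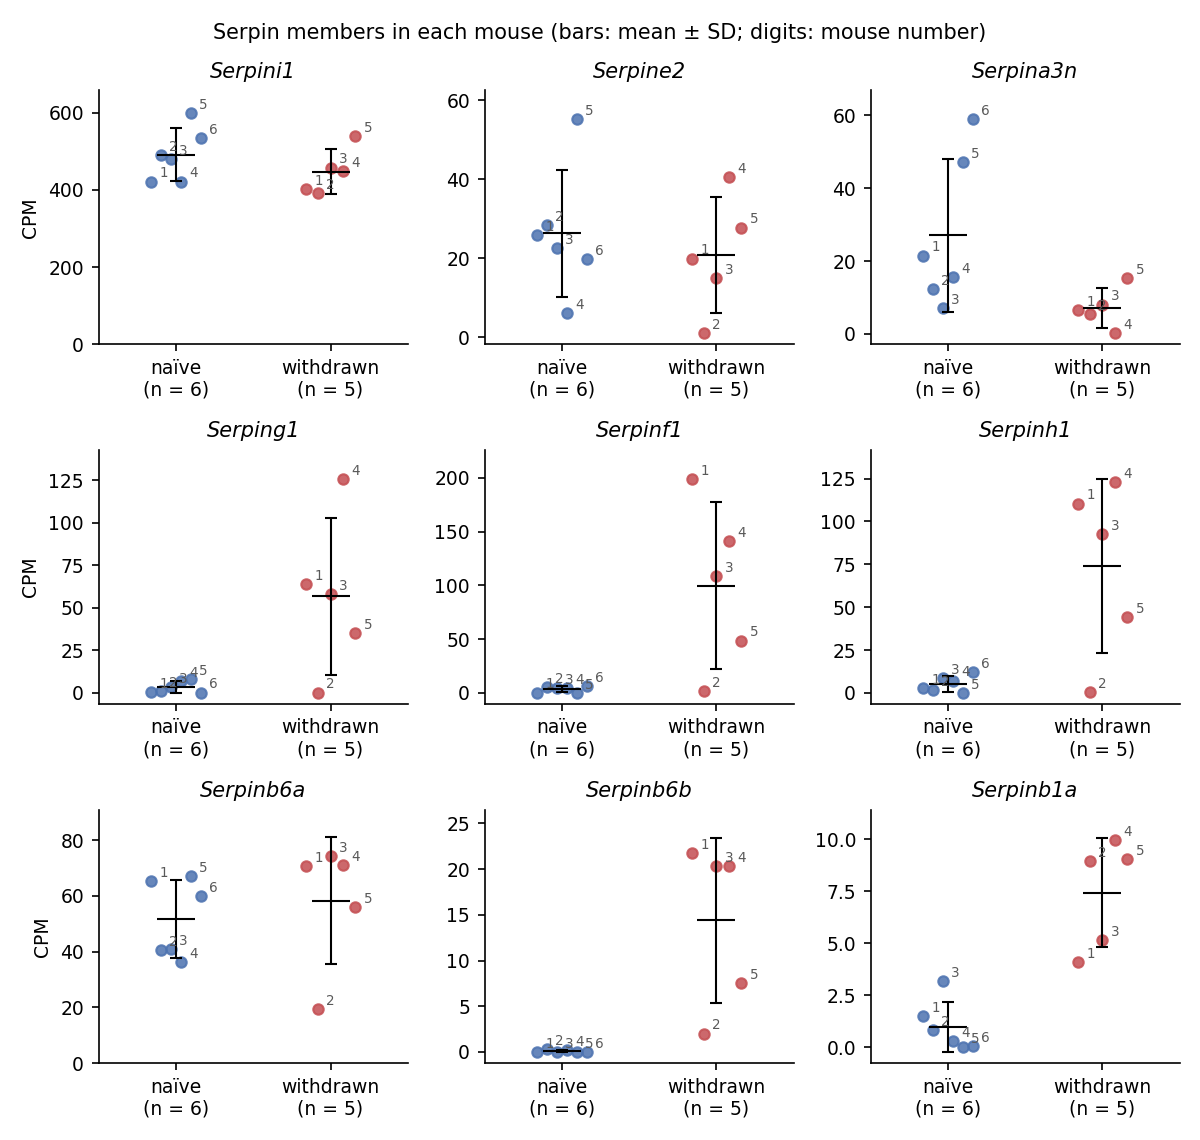
Expression of the 9 Serpin members in CPM (vertical axes), each point 1 mouse with its number, with the mean and SD of 6 naïve (blue) and 5 withdrawn (red) mice. Serpinb6b and Serpinb1a have every withdrawn mouse above every naïve mouse, while withdrawn mouse 2 lies with the naïve mice for Serpinf1, Serping1 and Serpinh1.

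Serpini1 had the largest share of the summed Serpin CPM in every mouse. These shares are of counts, not scaled to gene length, and longer genes collect more counts. In withdrawn mice 1, 3 and 4 the share of Serpini1 was 38.2%, 47.4% and 37.5%. This gene encodes neuroserpin, which neurons secrete and which inhibits tissue plasminogen activator. The summed level of all Serpin genes was 649.7 ± 107.9 CPM (SD, n = 6) in the naïve group and 907 ± 278.9 CPM (SD, n = 5) after withdrawal. Serpini1 supplied 75.9% ± 3.81 (SD, n = 6) of that sum in the naïve group and 54.1% ± 20.1 (SD, n = 5) after withdrawal. In withdrawn mouse 2 its share was 85.2%, above every naïve mouse, and in the other 4 withdrawn mice it lay between 37.5% and 62.3%, below every naïve mouse. The CPM of Serpini1 itself overlapped between groups, as given below. Serpinf1 took 9.58% ± 7.02 (SD, n = 5) of the withdrawn sum against 0.563% ± 0.419 (SD, n = 6) of the naïve sum, and Serpinh1 took 7.11% ± 4.49 against 0.864% ± 0.686 for the same numbers of mice.

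Levels of different genes were set side by side per kilobase of exon (CPM per kb). In naïve mice Serpini1 stood at 67.4 ± 9.36 CPM per kb (SD, n = 6). Serpina3n followed at 13.1 ± 10.2, Serpinb6a at 9.57 ± 2.57, Serpine2 at 3.18 ± 1.95, Serpinh1 at 2.24 ± 1.93, Serpinf1 at 1.51 ± 1.17 and Serping1 at 1.39 ± 1.49 CPM per kb. Serpinb1a, at 0.425 ± 0.530 CPM per kb, and Serpinb6b, at 0.0372 ± 0.0615 CPM per kb, were the lowest. Over all 11 mice and on a log2 scale, Serpini1 was above the next member, Serpinb6a, in 11 of 11 mice (adjusted p = 0.00684 over 7 neighbouring pairs of the 8 members other than Serpinb6b, two-sided exact sign-flip permutation test within mice). Serpinb6a was above Serpina3n in 8 of 11 mice (adjusted p = 0.461 in the same exact test), and the lower neighbours had adjusted p of 0.868 or more. The test pools both groups, so opposite orders in the groups cancel, and a large p does not show like levels. The mean of Serpina3n was above that of Serpinh1 in naïve mice and below it in withdrawn mice (3.46 against 30.3 CPM per kb). Serpinb6b was last in this order and was not tested. The order depended on the length and the offset used. With the length of a single RefSeq transcript, Serpine2 moved to the rank after Serpinb6a, which was above it in 11 of 11 mice (adjusted p = 0.00342, exact sign-flip test), and Serpinf1 and Serpinh1 changed places. With an offset of 0.1 CPM per kb, chosen after seeing the data, Serpine2 and Serping1 changed places. In withdrawn mice the levels were 42.3 ± 32.8 CPM per kb (SD, n = 5) for Serpinf1, 30.3 ± 20.8 for Serpinh1 and 24.3 ± 19.9 for Serping1, between Serpini1 at 61.4 ± 8.04 and Serpinb6a at 10.8 ± 4.22 CPM per kb.

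Serpini1 (chromosome 3 of GRCm38 from 75557547 to 75643495, plus strand) had between 421 and 598 CPM in naïve mice, with a median of 485 CPM. The withdrawn mice 1 to 5 had 401, 391, 458, 449 and 539 CPM. The groups overlapped, with withdrawn mice 1 and 2 just below the lowest naïve mouse. Its log2 fold change was -0.13 (SE 0.14, adjusted p = 0.907, edgeR), the smallest standard error of the members. Its sign was negative in all 24 alternative settings, from -0.36 to -0.02. Neuroserpin has a close relative in function in Serpine2, protease nexin-1, which is made by glia and neurons and inhibits thrombin and the plasminogen activators. Serpine2 (chromosome 1 from 79794197 to 79861180, minus strand) had 6.12 to 55.2 CPM in naïve mice (median 24.3). Withdrawn mice had 19.9, 1.01, 15.04, 40.6 and 27.8 CPM. All withdrawn values but that of mouse 2 fell within the naïve range. Serpine2 had a log2 fold change of -0.34 (SE 0.65, adjusted p = 0.960, edgeR), and its sign turned in 4 of 23 alternative settings. Among them were the fits without naïve mouse 5 (0.025) and without both naïve mouse 5 and withdrawn mouse 2 (0.33).

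Serpinf1, Serpinh1 and Serping1 had in common that 4 of the 5 withdrawn mice lay above the naïve range. The share of all genes with this pattern was not computed. Serpinf1 encodes pigment epithelium-derived factor, a secreted serpin that does not inhibit proteases and acts on vessels and neurons. Serpinh1 encodes HSP47, a chaperone of the endoplasmic reticulum that binds folded procollagen. Serping1 encodes the C1 inhibitor, which blocks the complement proteases C1r and C1s and plasma kallikrein.

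Serpinf1 (chromosome 11 from 75409769 to 75422701, minus strand) had at most 6.67 CPM in naïve mice, with a median of 4.39 and no count in naïve mouse 5. Withdrawn mice 1 to 5 had 199.2, 1.46, 108.3, 141 and 48.7 CPM. All withdrawn mice but mouse 2, which had 13 counts, were far above every naïve mouse, and mouse 2 lay inside the naïve range. The log2 fold change was 4.79 (SE 1.04, unadjusted p = 0.000411, adjusted p = 0.126, edgeR). DESeq2 gave 4.85 (SE 1.00, adjusted p = 0.00041). Without withdrawn mouse 2 edgeR gave 5.09 (SE 0.81, adjusted p = 0.00895), and without the 3 withdrawn mice whose labels conflict it gave 4.79 (SE 1.31, adjusted p = 0.647).

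Serpinh1 (chromosome 7 from 99345376 to 99353239, minus strand) had 0 to 12.2 CPM in naïve mice (median 5.01). Withdrawn mice had 110.4, 0.448, 92.5, 123 and 44.1 CPM. The pattern was the same as for Serpinf1, with 4 withdrawn mice above every naïve mouse and mouse 2 within the naïve range on 4 counts. Serpinh1 had a log2 fold change of 3.75 (SE 1.04, unadjusted p = 0.00297, adjusted p = 0.265, edgeR), and 4.06 (SE 0.80, adjusted p = 0.0268, edgeR) without withdrawn mouse 2. DESeq2 on all mice gave 3.80 (SE 1.02, adjusted p = 0.0191).

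Serping1 (chromosome 2 from 84765387 to 84775444, minus strand) had 0 to 8.06 CPM in naïve mice (median 2.18). Withdrawn mice had 64.0, 0, 58.0, 125.9 and 35.1 CPM. Withdrawn mouse 2 had no count of Serping1, and the other 4 were above every naïve mouse. In edgeR the log2 fold change was 4.12 (SE 1.22, unadjusted p = 0.00459, adjusted p = 0.311). DESeq2 did not call Serping1 on all mice (log2 fold change 4.17, SE 1.47, adjusted p = 0.143) and called it without withdrawn mouse 2 (4.48, SE 0.96, adjusted p = 0.0004). edgeR without that mouse gave 4.41 (SE 0.93, adjusted p = 0.0422).

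Markers of fibroblasts and of microglia and macrophages moved with these 3 members. The 10 listed markers (Col1a1, Col1a2, Col3a1, Dcn, Lum, Ogn, Igf2, Slc6a13, Fmod and Islr) had a summed level of 9.14 to 82.7 CPM in naïve mice (median 28.4). Withdrawn mice 1 to 5 had 1566, 18.4, 872, 1230.0 and 304 CPM. The order of the withdrawn mice by this sum was the order by Serpinf1, and withdrawn mouse 2 was again inside the naïve range. The difference of the log2 sums had p = 0.0216 in a two-sided exact permutation test over mice, or 0.216 adjusted over 10 cell type lists. Without withdrawn mouse 2 the adjusted p was 0.0476 in the same exact test. Of the 10 markers, 8 passed the filter, all 8 were higher in withdrawn mice and 7 had an unadjusted p under 0.05, with 0 called in edgeR. Of all tested genes 51.8% were higher. At an unadjusted p under 0.05, 5.00% were higher and 2.22% lower, and these shares apply to every list below. The median log2 fold change of the 8 markers was 3.98, against 0.02 for all tested genes. The 10 markers did not all rise. Col1a1 and Ogn had 377.6 and 202.5 CPM in withdrawn mouse 1, while Lum and Igf2 had at most 2.58 and 0.288 CPM in every withdrawn mouse. Lum had 6.85 CPM in naïve mouse 6 and at most 0.714 CPM in the other naïve mice. Igf2 was above 0.288 CPM in naïve mice 1, 2, 3 and 6. In withdrawn mouse 3, Lum and Slc6a13 had no count, and in withdrawn mouse 2, Islr, Ogn, Fmod and Igf2 had none.

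The 10 markers of microglia and macrophages summed to 10.6 to 28.0 CPM in naïve mice, and to 43.4, 9.63, 39.3, 47.3 and 29.2 CPM in withdrawn mice 1 to 5. Here too withdrawn mouse 2 was apart from the other 4, which were above the naïve range. The exact permutation test gave p = 0.147, or 0.736 after adjustment over the 10 lists, and the adjusted p without withdrawn mouse 2 was 0.0476. Of these markers 5 passed the filter, 3 with higher and 2 with lower values in withdrawn mice, and Tmem119, a microglial membrane protein, had an unadjusted p under 0.05 (log2 fold change 3.75, SE 1.47, adjusted p = 0.558, edgeR). In each naïve mouse 1 to 8 of the 10 had no count, and in each withdrawn mouse 2 to 6. The part of these markers in the result was not tested.

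With the mean log2 CPM of the fibroblast markers as a covariate in edgeR, the log2 fold change of Serpinf1 was 1.01 (SE 0.69, adjusted p = 0.820) and that of Serpinh1 was -0.041 (SE 0.80, adjusted p = 0.996). Serping1 had 2.93 (SE 2.20, adjusted p = 0.833) and Serpinb1a 2.68 (SE 1.07, adjusted p = 0.691). The covariate and the group are related, so that this fit removes part of any difference that goes with both. Across the 11 mice, after each group's mean was subtracted, log2 CPM of Serpinf1 and Serpinh1 had a Pearson r of 0.920. Without naïve mouse 5 and withdrawn mouse 2, the mice farthest from the median of Serpinf1, r was 0.549. Serpinf1 and Serping1 had 0.500, and 0.346 without these mice. The values of a mouse share 1 library, and no test was made of these correlations.

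**Figure D2:**
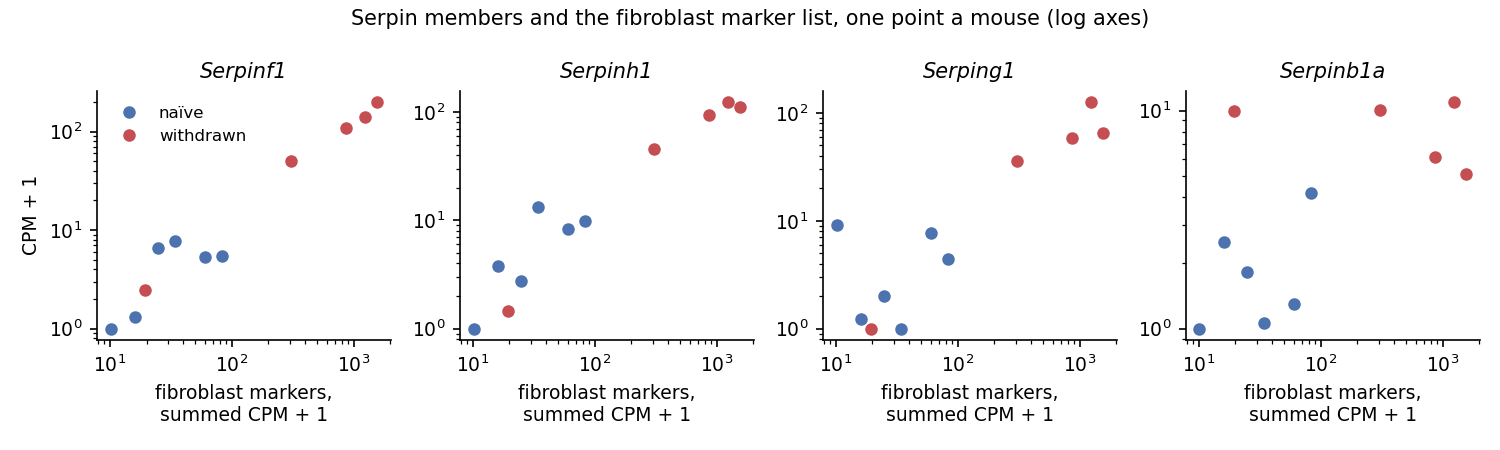
CPM + 1 of Serpinf1, Serpinh1, Serping1 and Serpinb1a (vertical log axes) against the summed CPM + 1 of 10 fibroblast markers (horizontal log axes), 1 point a mouse, naïve in blue and withdrawn in red. For the first 3 genes the withdrawn mouse with a marker sum of 18.4 CPM lies among the naïve mice, while for Serpinb1a it lies with the other withdrawn mice.

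The promoter windows of Serpinf1 and Serpinh1 are shown because these members varied together across mice. Windows are 300 bases from RefSeq on GRCm38.p6, 250 before to 50 after the annotated start, and RefSeq windows matched 7 of the 9 members by symbol. Capitals mark GGGCGG or its complement CCGCCC (a GC box, in 35.7% of 32851 promoter windows) and TTCNNNGAA (a site of the kind bound by STAT factors, in 8.30% of windows).
Serpinf1, chr11:75422574-75422873, minus strand: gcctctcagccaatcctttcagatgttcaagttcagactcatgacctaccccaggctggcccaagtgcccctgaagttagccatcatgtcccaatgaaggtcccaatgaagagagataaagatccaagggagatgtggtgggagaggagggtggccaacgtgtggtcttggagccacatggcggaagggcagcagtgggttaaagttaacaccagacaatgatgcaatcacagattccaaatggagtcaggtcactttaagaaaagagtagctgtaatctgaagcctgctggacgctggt
Serpinh1, chr7:99353190-99353489, minus strand: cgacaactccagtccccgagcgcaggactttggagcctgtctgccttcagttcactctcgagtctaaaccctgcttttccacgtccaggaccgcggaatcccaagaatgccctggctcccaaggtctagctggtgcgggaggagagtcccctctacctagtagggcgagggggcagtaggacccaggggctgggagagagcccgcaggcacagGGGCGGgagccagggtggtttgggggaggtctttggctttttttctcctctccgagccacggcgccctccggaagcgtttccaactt
The Serpinh1 window held 1 GC box and the Serpinf1 window held neither motif. TATAAA (in 13.6% of windows), CACGTG (7.15%) and TGACGTCA (1.79%), each read on both strands, were in no window of the 7 members, and GAANNTTC (7.86%) was in that of Serpini1 alone. The GC content was 50.7% for Serpinf1 and 62.3% for Serpinh1, against a median of 52.7% over all windows. These are matches of letters in 1 window and say nothing on binding.

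Serpina3n was the member with lower values in withdrawn mice at an unadjusted p under 0.05. It encodes a secreted inhibitor of chymotrypsin-like proteases and is known as a gene of reactive astrocytes. Serpina3n (chromosome 12 from 104406729 to 104414329, plus strand) had 7.12 to 58.9 CPM in naïve mice (median 18.5). Withdrawn mice had 6.63, 5.49, 8.04, 0.123 and 15.4 CPM. Withdrawn mice 1, 2 and 4 were below every naïve mouse, and mice 3 and 5 were within the naïve range. Serpina3n had a log2 fold change of -1.92 (SE 0.78, unadjusted p = 0.0277, adjusted p = 0.591, edgeR), and DESeq2 gave -1.93 (SE 0.75, adjusted p = 0.220). It stayed negative in all 23 alternative settings and was -0.90 with the fibroblast score as a covariate. Of the 75-base windows of its transcript, 29 of 1990 also occur in transcripts of Serpina3g or Serpina3e-ps, so that some of its reads could have been lost as multiply mapped.

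Astrocyte markers stand beside Serpina3n here because of its known source. The 10 markers summed to 320.7 to 534 CPM in naïve and 259.7 to 703.5 CPM in withdrawn mice, and the groups overlapped (p = 0.446 in the exact permutation test, 0.743 after adjustment over the 10 lists). Of these markers 9 passed the filter, 3 with higher and 6 with lower values in withdrawn mice, and 0 were called. The connexin gene Gja1 had 15.3 ± 12.0 CPM (SD, n = 6) in naïve against 186.8 ± 122 CPM (SD, n = 5) in withdrawn mice (log2 fold change 3.61, SE 0.96, adjusted p = 0.250, edgeR), with 4 withdrawn mice above the naïve range. S100b had a log2 fold change of 1.29 (adjusted p = 0.614) and Aldoc of -0.71 (adjusted p = 0.573), each with an unadjusted p under 0.05. Gfap, the intermediate filament of reactive astrocytes, had 5.6, 26.1, 0.0937 and 41.6 CPM in naïve mice 1, 2, 3 and 6. It had no count in naïve mice 4 and 5 or in withdrawn mouse 1. Withdrawn mice 2 to 5 had 0.112, 0.420, 4.55 and 0.212 CPM. Of 18 genes listed for reactive astrocytes, 13 passed the filter, 9 with higher and 4 with lower values in withdrawn mice, and 3 had an unadjusted p under 0.05, all higher, with 0 called. The 4 with the smallest p were Timp1, an inhibitor of metalloproteinases, with 0.559 ± 0.585 CPM (SD, n = 6) against 11.8 ± 6.80 CPM (SD, n = 5), Steap4 with 0.190 ± 0.298 against 10.4 ± 13.2, ceruloplasmin (Cp) with 11.1 ± 7.17 against 61.1 ± 41.7, and Emp1 with 2.14 ± 2.63 against 0.294 ± 0.296. Their log2 fold changes were 4.35, 5.66, 2.47 and -2.85 (adjusted p from 0.194 to 0.702, edgeR). The median over the 13 was 0.65.

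Serpinb6a, Serpinb6b and Serpinb1a belong to the clade of serpins that stay inside the cell, where they meet proteases that leak from granules and lysosomes. All 3 lie in a cluster of 16 Serpin genes on chromosome 13, from 32842092 to 34002794 on GRCm38. Serpinb6a and Serpinb6b are near copies, with 974 of 1128 aligned coding bases alike (86.3%). The stretches below encode the loop that meets the protease, up to the serpin signature near the end of the protein, and are shown because that loop is the part of a serpin that meets its protease. Capitals mark the letters by which the copies differ. The stretches were read from GENCODE M21 transcript sequences and placed on GRCm38, and each lies in 1 exon.
Serpinb6a, chr13:33918128-33918223, minus strand: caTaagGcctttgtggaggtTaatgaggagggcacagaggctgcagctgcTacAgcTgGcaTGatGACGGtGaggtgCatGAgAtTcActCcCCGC
Serpinb6b, chr13:32978177-32978266, plus strand: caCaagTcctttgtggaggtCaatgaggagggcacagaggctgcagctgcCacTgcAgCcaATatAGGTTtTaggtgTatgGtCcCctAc
Of the aligned letters 70 were the same and 20 differed, and 6 letters of Serpinb6a stood opposite a gap. Despite this likeness, 0 of the 2119 windows of 75 bases, the read length, in the Serpinb6b transcript occur in a transcript of another gene, so that a full read of Serpinb6b is told from Serpinb6a by at least 1 letter. For Serpinb6a 97 of 1430 windows occur in the antisense transcript 1110046J04Rik, and its exons share 584, 762 and 241 of their 5409 bases with 1110046J04Rik, Nqo2 and Ripk1 on the opposite strand. How strand was handled in counting is not given in the sources used here, so that the Serpinb6a count is uncertain to that extent.

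Serpinb6a (from 33917918 to 34002794, minus strand), an inhibitor of cathepsin G and related proteases, had 36.3 to 67.1 CPM in naïve mice (median 50.5). Withdrawn mice had 70.8, 19.5, 74.4, 70.9 and 56.0 CPM. Withdrawn mice 1, 3 and 4 were slightly above every naïve mouse, mouse 2 was below all of them, and the group difference was within the spread (log2 fold change 0.17, SE 0.31, adjusted p = 0.953, edgeR). The sign turned without the 3 mice whose labels conflict (-0.23) and with the fibroblast score as a covariate (-0.22).

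Serpinb6b (from 32965209 to 32979067, plus strand) was the member selected on this contrast. It had no count in naïve mice 1, 3, 5 and 6, and 6 and 3 counts in naïve mice 2 and 4, or 0.330 and 0.175 CPM. Withdrawn mice 1 to 5 had 302, 18, 435, 165 and 107 counts, or 21.8, 2.02, 20.3, 20.3 and 7.57 CPM. The groups did not overlap, which is what the gene was picked for, and mouse 2 was again the lowest withdrawn mouse. The fitted log2 fold change was 7.13 (SE 1.11), a size that depends on the few naïve counts, and it ranged from 6.88 to 8.16 as each mouse was left out in turn and was 5.09 with the fibroblast score as a covariate. The largest contribution of a mouse to the withdrawn sum of CPM was 30.2%.

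Set against Serpinb6a within each library, which leaves depth and normalization out, Serpinb6b took 0.214% ± 0.346 (SD, n = 6) of the counts of the pair in the naïve group and 17.7% ± 6.54 (SD, n = 5) after withdrawal. The highest naïve share was 0.803% in mouse 2 (95% Wilson interval 0.369% to 1.74%, 747 counts). The lowest withdrawn share was 9.38% in mouse 2 (95% Wilson interval 6.01% to 14.3%, 192 counts). Serpinb6a was itself low in withdrawn mouse 2 (174 counts), which raises the share of Serpinb6b there. Serpinb6b was picked for its rise, so these shares and intervals describe that rise and do not test it. In the 4 naïve mice with no Serpinb6b count, the floor of 3 counts allowed a share of up to 0.303% to 0.688%. The shares of withdrawn mouse 2 and of withdrawn mouse 5, 11.9%, were below those of the other 3 withdrawn mice, which lay between 21.4% and 23.5%.

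Serpinb1a (from 32842092 to 32851185, minus strand), an inhibitor of neutrophil elastase, cathepsin G and proteinase 3, had 0 to 3.19 CPM in naïve mice (median 0.557). Withdrawn mice had 4.11, 8.95, 5.14, 9.96 and 9.06 CPM, on 57 to 128 counts. Each withdrawn mouse, mouse 2 among them, was above every naïve mouse, a separation found in this direction for 0.690% of tested genes. Serpinb1a had a log2 fold change of 2.93 (SE 1.02, unadjusted p = 0.0125, adjusted p = 0.459, edgeR). DESeq2 called Serpinb1a (2.99, SE 0.89, adjusted p = 0.0476), but not without withdrawn mouse 2 (2.90, SE 0.98, adjusted p = 0.0972). Of the windows of its transcript, 7 of 1844 also occur in Serpinb1b, which had 61 counts over all mice.

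The windows at the starts of the near copies are shown because the levels of the copies differed in naïve mice, with the same capitals as above.
Serpinb6a, chr13:34002745-34003044, minus strand: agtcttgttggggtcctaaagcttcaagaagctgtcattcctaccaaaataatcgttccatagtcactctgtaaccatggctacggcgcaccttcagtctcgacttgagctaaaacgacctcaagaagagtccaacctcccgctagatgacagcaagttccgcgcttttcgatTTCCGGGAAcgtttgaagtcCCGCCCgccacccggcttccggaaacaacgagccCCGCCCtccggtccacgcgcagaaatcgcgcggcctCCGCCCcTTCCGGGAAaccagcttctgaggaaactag
Serpinb6b, chr13:32965011-32965310, plus strand: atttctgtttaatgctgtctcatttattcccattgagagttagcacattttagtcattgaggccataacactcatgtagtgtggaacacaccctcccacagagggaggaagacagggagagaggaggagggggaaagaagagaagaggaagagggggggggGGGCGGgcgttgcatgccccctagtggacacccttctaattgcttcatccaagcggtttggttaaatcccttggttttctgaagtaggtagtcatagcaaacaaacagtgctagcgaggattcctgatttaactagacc
The Serpinb6a window held 3 GC boxes and 2 TTCNNNGAA sites, none of which overlapped, and had a GC content of 55.7%, and the Serpinb6b window held 1 GC box and had 48.3%. A further Serpinb6a start in RefSeq held no motif of the set.

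Of the 16 Serpin genes in the cluster, 5 passed the filter. Besides Serpinb6b they were Serpinb1a, Serpinb9, Serpinb9b and Serpinb6a, and these 4 had positive log2 fold changes, as did 51.8% of all 17093 tested genes. The other 4 tested genes in the interval, Gm6093, 1110046J04Rik, Nqo2 and Ripk1, had log2 fold changes from -0.55 to 2.09, of which 3 were positive, with 0 at an unadjusted p under 0.05 in edgeR.

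**Figure D3:**
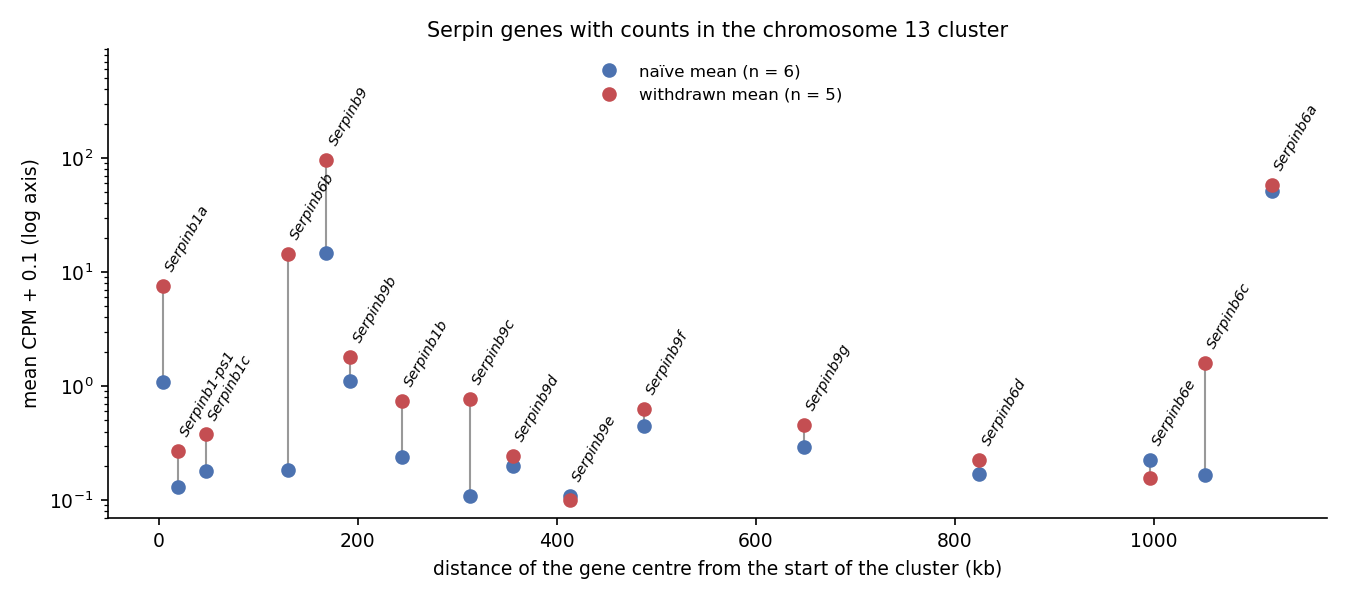
Mean CPM + 0.1 (vertical log axis) of the Serpin genes with counts in the chromosome 13 cluster, against the distance of the gene's centre from the start of the cluster in kb, for naïve (blue, n = 6) and withdrawn (red, n = 5) mice. Serpinb6b has the longest line between the group means, and Serpinb6a at the far end has one of the shortest.

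Beyond the 9 members, 54 of 59 other Serpin genes had a count in at least 1 mouse and 4 passed the filter, with 0 called in edgeR and 0 in DESeq2. Serpinb9, whose protein inhibits granzyme B, had 0 to 50.3 CPM in naïve mice (median 7.28) and 127.9, 5.37, 108.1, 176 and 66.1 CPM in withdrawn mice. Withdrawn mouse 2 was within the naïve range and the other 4 were above it. Its log2 fold change was 2.73 (SE 0.97, unadjusted p = 0.0136, adjusted p = 0.468, edgeR), and -0.047 (adjusted p = 0.996) with the fibroblast score. Serpinb9 was called in edgeR once naïve mouse 5 and withdrawn mouse 2 were both left out (adjusted p = 0.0332), a setting chosen after seeing the data. Serpinb8 had a log2 fold change of -0.95 (SE 0.68), Serpinc1, which encodes antithrombin, 0.53 (SE 1.26), and Serpinb9b 0.77 (SE 1.32), with adjusted p of 0.850 or more in edgeR. Serpinb6c, below the filter, had at most 0.330 CPM in naïve mice and 0, 0, 1.59, 5.29 and 0.637 CPM in withdrawn mice. The 55 genes below the filter had at most 5.29 CPM in any mouse.

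**Figure D4:**
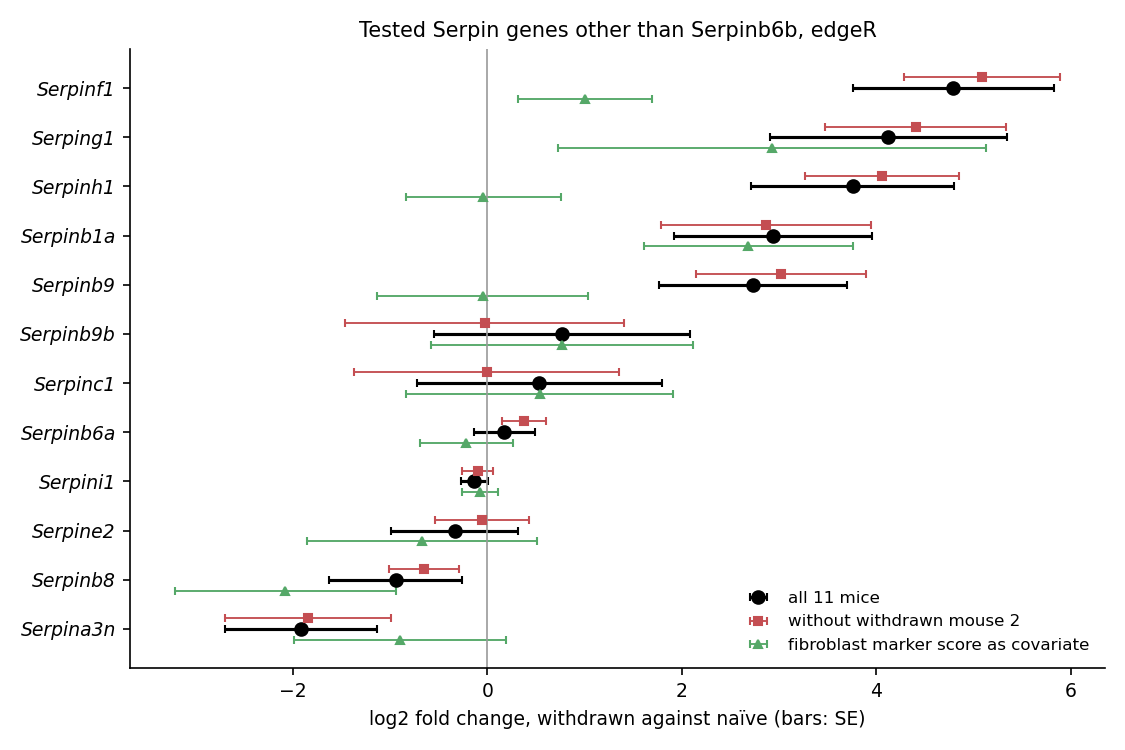
Log2 fold change of withdrawn against naïve mice with its SE (horizontal axis) for the 12 tested Serpin genes other than Serpinb6b, in edgeR with all 11 mice (black), without withdrawn mouse 2 (red) and with the fibroblast marker score as a covariate (green). Serpinf1, Serpinh1 and Serpinb9 move toward 0 with the covariate and Serpinb1a stays near 2.7.

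Serpins act on proteases made by the same or by other cells. Of 29 listed target proteases 12 passed the filter on low counts, 8 with higher and 4 with lower values, a median log2 fold change of 0.40 and 0 calls in edgeR, with 1 at an unadjusted p under 0.05. This was Htra1, a secreted serine protease, with 15.2 ± 11.7 CPM (SD, n = 6) in the naïve and 110.9 ± 76.0 CPM (SD, n = 5) in the withdrawn group (log2 fold change 2.87, SE 0.80, adjusted p = 0.265). C1ra, a target of the C1 inhibitor, had 1.17 ± 1.64 against 6.502 ± 4.08 CPM (log2 fold change 2.46, adjusted p = 0.754). The lysosomal protease Ctsb had 775 ± 233.7 and 632 ± 90.5 CPM (-0.29, adjusted p = 0.820), and Gzmm had 1.92 ± 1.32 and 0.605 ± 0.921 CPM (-1.63, adjusted p = 0.816). Gzma had no count in any mouse.

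Receptors and binding partners of serpins all passed the filter, 17 of 17, with 14 higher and 3 lower, where 51.8% of all tested genes were higher. In edgeR 0 were called, and the median log2 fold change was 0.29. At an unadjusted p under 0.05 were 3 higher and 1 lower, against 5.00% and 2.22% of all tested genes. Lrp1, which takes up serpin-protease complexes, had 215.5 ± 96.4 CPM (SD, n = 6) in the naïve and 345 ± 76.0 CPM (SD, n = 5) in the withdrawn group (log2 fold change 0.68, SE 0.31, adjusted p = 0.678). Pnpla2 and Plxdc1, both described as receptors of the Serpinf1 protein, differed in opposite directions, with log2 fold changes of 0.78 (SE 0.35, adjusted p = 0.672) and -0.88 (SE 0.35, adjusted p = 0.573). Sdc2, a heparan sulfate proteoglycan, had 43.5 ± 18.6 and 77.3 ± 10.8 CPM (0.83, SE 0.26, adjusted p = 0.353).

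Of 20 listed clients and partners of the collagen chaperone Serpinh1, 19 passed the filter, 16 with higher and 3 with lower values in withdrawn mice. None was called in edgeR, 8 had an unadjusted p under 0.05, all higher, and the median log2 fold change was 1.01. Of all tested genes 51.8% were higher, and 5.00% were higher at an unadjusted p under 0.05. Col1a1 and Col1a2, the chains of type I collagen, had 5.58 ± 6.61 and 11.2 ± 16.1 CPM (SD, n = 6) in naïve mice against 165 ± 145 and 292 ± 268 CPM (SD, n = 5) in withdrawn mice (log2 fold changes 4.88 and 4.71, adjusted p = 0.157 and 0.273). Both are also on the fibroblast list. Fkbp10, a prolyl isomerase of the endoplasmic reticulum that works on collagen, had 1.52 ± 2.04 against 25.0 ± 21.9 CPM (4.01, adjusted p = 0.311). P4hb, the shared subunit of the prolyl hydroxylases, had 183.8 ± 23.1 against 267 ± 74.4 CPM (0.54, adjusted p = 0.462). For each of these 4 genes, named for the smallest p of the list, 4 of the 5 withdrawn mice were above every naïve mouse. The share of all tested genes with this pattern was not computed. Among 16 genes of the heat shock and ER stress response, all tested, 9 were higher and 7 lower with a median of 0.15 and 2 at an unadjusted p under 0.05, which were Pdia4 (log2 fold change 0.55, adjusted p = 0.661) and Hspa1a (1.16, adjusted p = 0.683). Hsph1 and Canx, next by p, had -0.34 and 0.25 (adjusted p = 0.731 and 0.816, edgeR).

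The genes that varied most like each member were found from log2 CPM with each group's mean subtracted, over 11 mice and 17093 genes, as a description. For Serpinh1 they were Pmp22 (Pearson r = 0.989), Snhg1 (0.988) and Nfe2l2 (0.982), and for Serpinf1 Taok2 (0.978), Nedd4 (0.976) and Gjb2 (0.975). With the pair of mice farthest from the median left out, r for these 6 lay between 0.881 and 0.943. Serpinb6b was closest to Fgl2 (0.959), Frk (0.958) and Pdzk1ip1 (0.953), and Serping1 to Vps8 (0.949), Gnpnat1 (0.943) and Lrrc58 (0.942). For Serpinb1a they were Gm4335 (0.930), Pm20d1 (0.929) and Zfp866 (0.926), and for Serpinb6a Nif3l1 (0.962) and AA414768 (0.949) were among them. Serpine2 was closest to Dhdh (0.962), Aarsd1 (0.955) and Ppp1r18 (0.955), Serpini1 to Bmp3 (0.965), Pbx4 (0.920) and Exoc6b (0.898), and Serpina3n to Oaz2 (0.964), Rasgef1a (0.931) and Rtca (0.916). Over all 27 genes found by the rule, r without the farthest pair ran from 0.676 to 0.945, and it was lowest for Rtca (0.676), Dhdh (0.710), Aarsd1 (0.715) and Gnpnat1 (0.756). The best of 17093 genes over 11 mice has a high r by selection.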

How the data were processed

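RNA of sorted mPFC CRF1+ neurons from 6 naïve and 5 withdrawn mice was measured. The authors used cutadapt 1.18 for trimming, STAR 2.5.2a for mapping to GRCm38 with Ensembl release 91, and HTSeq 0.11.0 for counting. They deposited raw counts per gene and mouse, as whole numbers with no normalization. Tally lines that name no gene were left out. Reads tallied as overlapping no counted feature were 5.77% to 48.1% of each library's tally, and where they lay is not given. The strand setting is not given in the sources used here.

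Symbols and exons came from GENCODE M21 on GRCm38 (53360 of 53465 genes matched). Low-count genes were removed by filterByExpr (minimum count 10, minimum total 15). Groups were compared with edgeR 4.0.16 in R 4.3.3 (TMM, quasi-likelihood test, Benjamini-Hochberg over all genes, thresholds as in the study), with a prior count of 2 for log2 CPM. The SE is the size of the log2 fold change over the square root of F. DESeq2 1.42.0 and limma 3.58.1 (voom) were alternatives. Levels per length used an offset of 0.01 CPM per kb, with Serpinb6b left out of the tests, and marker sums an offset of 1 CPM. Permutation tests covered all 462 splits of the mice. The fit was also run on simulated counts with known changes, and the share of changes it recovered is not reported here. No 2 libraries were duplicates (chi-square per degree of freedom at least 25.6 over 55 pairs), and each replicate is a mouse.

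The members, gene lists and tests were chosen with earlier results of these data known. By rule, the text names the 9 members, the 5 other Serpin genes with the highest mean CPM, up to 4 genes per list by unadjusted p, and the 3 genes most like each member, of which 1 gene is not reported here. Single fibroblast and astrocyte markers, the tested neighbours on chromosome 13 and Gzma were named after their values were seen.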

Additional observations from a re-analysis of the deposited data

Results flagged for a closer look

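Among 38 sets of values of 1 group (log2 CPM of the 9 members and of the summed markers of 10 cell types in each group), 5 had a mouse that stood apart by Dixon's criterion, which chance meets in about 1 of 20 sets, or 1.9 here. Withdrawn mouse 2 was the low value in 4 of the 5. Its log2 CPM was 4.29 for Serpinb6a (other withdrawn mice 5.81 to 6.22), 0.20 for Serpine2 (3.92 to 5.35), -2.80 for Serping1, where it had no count (5.14 to 6.98), and -0.76 for Serpinh1 (5.47 to 6.94). This mouse had 8696939 counts on genes, and 39.6% of its tallied reads overlapped no counted feature. Withdrawn mouse 4, with fewer counts (7351567) and more such reads (48.1%), was not low for these members. The part of either measure in these values was not tested. Withdrawn mouse 4 was the low value for Serpina3n, with a log2 CPM of -1.91 from 1 count (other withdrawn mice 2.49 to 3.96).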

How the results depend on the processing

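edgeR's count of called genes, 1 with all mice, was 362 with DESeq2's Wald test (342 higher, 20 lower), 137 with no filter, 30 with at least 10 counts in every mouse, 26, 14 and 19 with genes detected, astrocyte or oligodendrocyte markers as covariates, and 0 with fibroblast markers or without the 3 mice whose labels conflict. It was 0 to 193 with each mouse left out, highest without withdrawn mouse 2, 310 without that mouse and naïve mouse 5, and 540 in DESeq2 without withdrawn mouse 2 (both chosen after seeing the data). The count of Serpin genes other than Serpinb6b, 0, was 3 in DESeq2, 1 with no filter, 0 to 3 with each mouse left out, 4 without naïve mouse 5 and withdrawn mouse 2, and 3 in DESeq2 without the latter. Of 7 neighbouring pairs by level per length 1 differed, or 2 with transcript lengths. Of 10 marker lists 0 differed, and 0 to 2 with each mouse left out, the 2 being fibroblasts and microglia and macrophages without withdrawn mouse 2. Signs turned for Serpinb6a without the mice whose labels conflict (-0.23) and with the fibroblast covariate (-0.22), for Serpinh1 with that covariate (-0.041), and for Serpine2 with voom (0.17), the oligodendrocyte covariate (0.046), and without naïve mouse 5 and withdrawn mouse 2 (0.33). With each mouse left out Serpine2 ran from -0.73 to 0.025, the latter without naïve mouse 5. The causes were not tested. With a replicate block 0 genes and 0 Serpin genes were called. Same-numbered mice are different animals with correlations of deviations from -0.20 to 0.18, and 1 of 5 naïve and 1 of 5 withdrawn mice correlated best with its own number. At 0.135 to 0.408 CPM for 3 counts, Serpinb6b in naïve mice was at the limit of this depth.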
